A study of Homo sapiens with 14 samples.

Results

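Cells given a pool of small interfering RNAs (siRNAs) against WT1 are compared here with cells given non-targeting pools. All were OVCAR4, an established line of human high-grade serous ovarian carcinoma. The libraries were chosen by their titles: 2 named siWT1 and 4 controls, 2 named siNT1 and 2 named siNT2, which makes 6 of the 14 libraries of the series. In every group siRNA was given at 120 nM to 300000 cells by reverse transfection, the medium was changed after 24 hours, and total RNA was taken after 72 hours. The siNT1 group received a Dharmacon ON-TARGETplus non-targeting pool, siNT2 a custom Dharmacon non-targeting pool, and siWT1 a Dharmacon catalogue pool against WT1. Another 4 groups of 2 libraries received a pool against PAX8 (siPAX8), SOX17 (siSOX17) or MECOM (siMECOM), or the PAX8 and SOX17 pools together (siDual). They are used only where siWT1 is set beside them. Whether the paired libraries come from separate transfections is not given in the labels, so the p-values measure only the spread between these libraries.

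WT1 encodes a zinc-finger transcription factor needed for the formation of the kidney, the gonads and the mesothelium, and it is a routine marker of serous ovarian carcinoma. An siRNA works through its guide strand, which is loaded into an Argonaute protein and leads to cleavage of a transcript it pairs with along its length. A guide can also lower transcripts that match only its seed, a short stretch near its 5′ end, most often in the 3′ untranslated region (3′ UTR), as microRNAs do.

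The deposited counts summed to between 40832825 and 49059114 per control library and to 48562687 and 48043323 in the siWT1 libraries. Genes of the mitochondrial chromosome took 5.34 to 6.13% of the control counts, 9.29 and 7.91% of the siWT1 counts and 8.58 to 10.98% in the other 8 libraries. Markers of the line were present in the controls, where EPCAM was at 226 ± 8.97 CPM (counts scaled to a common library size; SD, n = 4), PAX8 at 205 ± 14.7 CPM and KRT8 at 1408 ± 117 CPM. WT1 and MSLN, also markers of this carcinoma, were near the floor of detection, MSLN at 0.778 to 1.01 CPM. All p-values for single genes below come from the quasi-likelihood test of edgeR, adjusted over 21032 genes by the Benjamini-Hochberg method, and a gene is called where the adjusted p was under 0.05.

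WT1 (chr11:32387775-32435630, hg38, minus strand) was scarce before any knockdown. The siNT1 libraries held 14 and 22 WT1 counts and the siNT2 libraries 21 and 18, against 0 and 1 in siWT1. The siWT1 libraries did not overlap the controls, and the level there was 2.41% of that in the controls (exact 95% interval from counting, 0.0601 to 13.8%). That interval covers counting error only. In the other targeting groups the counts ranged from 5 in a siDual library to 40 in a siMECOM library. WT1-AS, the antisense gene at this locus, had 0 to 2 counts in every library, and since no strand setting is stated for the counting, reads of the pair cannot be told apart.

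The other factors studied in the series responded unequally to the WT1 pool. PAX8, a paired-box factor of Müllerian and kidney development, stood at 196 and 192 CPM in siNT1, 206 and 225 in siNT2, and 112 and 118 in siWT1. Both siWT1 libraries lay below all 4 controls, with a log2 fold change of -0.83 ± 0.07 (SE; adjusted p = 4.48e-08). Its antisense neighbour PAX8-AS1 was called lower too, by -0.71 on the log2 scale. MECOM, a zinc-finger factor, went from 125 to 133 CPM in the controls to 104 and 100 in siWT1 (log2 fold change -0.35 ± 0.13, adjusted p = 0.0397). That call was lost on leaving out any 1 of these 6 libraries, at -0.38 to -0.32. SOX17, an endodermal and Müllerian factor, was at 104 to 119 CPM in the controls and 106 and 128 in siWT1 (0.08 ± 0.09, adjusted p = 0.508).

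The response spread over much of the transcriptome although its target was rare. Of 21032 genes tested, 3713 were called higher (17.7%) and 4171 lower (19.8%), 37.5% in either direction. Counts of list members below are to be read against these shares. Both siWT1 libraries lay above all 4 controls in 24.3% of tested genes and below all 4 in 26.6%. By at least 2-fold, 465 were higher (2.21%) and 863 lower (4.10%). Without siWT1 replicate 1, which leaves 1 library in that group, 2452 genes were called higher and 3109 lower, and without replicate 2, 2784 and 3339. The same fit called 63 genes (0.300%) between siNT1 and siNT2, of which 10 differed by at least 2-fold (0.0475%). That count was 11 and 17 without siNT1 replicates 1 and 2, and 33 and 14 without siNT2 replicates 1 and 2. Against the same control libraries it called 32.6% of genes in siMECOM, 52.2% in siPAX8, 52.6% in siSOX17 and 56.2% in siDual. These shares rest on shared controls and do not compare the groups with each other. The median log2 fold change over all tested genes was -0.0023, and the median size among called genes was 0.50. Taken against each control pool alone, 5142 genes were called in siWT1 against both.

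The 15 largest decreases among protein-coding genes that averaged a log2 CPM of 1 or more included metabolic, cytoskeletal and signalling genes. GPX3, a secreted glutathione peroxidase, stood at 221 and 263 CPM in siNT1, 244 and 258 in siNT2, and 20.3 and 35.7 in siWT1 (log2 fold change -3.14 ± 0.16, adjusted p = 2.45e-11). SH3GL1, an endocytic protein of the endophilin family, had 69.5 to 79.6 CPM in the controls and 8.08 and 9.67 in siWT1 (-3.09 ± 0.11, adjusted p = 2.14e-13). TPM4, a tropomyosin that coats actin filaments, was at 1504 and 1430 CPM in siNT1, 1446 and 1507 in siNT2, and 202 and 198 in siWT1 (-2.88 ± 0.08, adjusted p = 1.26e-14). In each of these genes both siWT1 libraries were far below every control.

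Next in size were CXCL1, a neutrophil chemokine (log2 fold change -2.99 ± 0.28), and PEMT, which makes phosphatidylcholine from phosphatidylethanolamine (-2.86 ± 0.14). They were followed by SLC2A4RG, a transcriptional regulator of a glucose transporter gene (-2.78 ± 0.10), TP53I11 (-2.62 ± 0.11) and CCDC92 (-2.55 ± 0.12). The potassium channel-interacting protein KCNIP1 (-2.54 ± 0.41) varied most, with 13.6 to 29.5 CPM in the controls and 5.16 and 1.86 in siWT1. The list closed with the tropomyosin TPM1 (-2.46 ± 0.09), LRRC61 (-2.45 ± 0.15), the myosin phosphatase subunit PPP1R12C (-2.41 ± 0.11), SH3BGRL2 (-2.39 ± 0.13) and the heme synthesis enzyme UROS (-2.35 ± 0.09). The adjusted p-values of these 11 genes were 7.76e-05 or lower.

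A short word recurred in the 3′ UTRs of these genes. Of the 15, 12 hold the hexamer CCACAC in the 3′ UTR of the transcript chosen for the gene and 7 hold the heptamer CCACACT. Over all protein-coding genes with a 3′ UTR of at least 50 bases, 31.8% held the hexamer and 11.9% the heptamer. The windows below, from GENCODE 29 transcripts on hg38, are those of genes with the longer word, shown 5′ to 3′ on the transcript strand with the matching bases in capitals.
GPX3, base 73 of the 3′ UTR (chr5:151028192-151028221, plus strand): cgtgtctccaaCCACACTatctacccatca
GPX3, base 506 (chr5:151028625-151028654, plus strand): ttctgggtctaCCACACTccccaacccccc
SH3GL1, base 31 (chr19:4361551-4361580, minus strand): cgcccctccgtCCACACTggccggcacccc
SH3GL1, base 155 (chr19:4361427-4361456, minus strand): tgagcaggaccCCACACTtgggtggggggg
TPM4, base 331 (chr19:16101666-16101695, plus strand): aataggcagccCCACACTttgaagaataca
TPM4, base 1524 (chr19:16102859-16102888, plus strand): tttattcagcaCCACACTacccaggaaata
TP53I11, base 2035 (chr11:44932831-44932860, minus strand): catccagtcttCCACACTcaactgtgggat
LRRC61, base 66 (chr7:150337696-150337725, plus strand): cctctctgcccCCACACTcgtcttagttgc
SH3BGRL2, base 2243 (chr6:79701741-79701770, plus strand): gccctctgggaCCACACTtagctcagagaa
UROS, base 265 (chr10:125788585-125788614, minus strand): agtcaaataaaCCACACTgactacctgtgc
GAPDH, base 72 (chr12:6538231-6538260, plus strand): gggagtccctgCCACACTcagtcccccacc
TPM4 holds 3 copies of the heptamer in all. GAPDH, described below, holds 2 in a 3′ UTR of 201 bases. The 3 largest decreases without the hexamer in the 3′ UTR were those of CXCL1, KCNIP1 and TPM1, and CXCL1 has a copy in its coding sequence. The 3′ UTR of the TPM1 transcript chosen here has 114 bases, and other transcripts of the gene were not searched. PAX8 holds 1 hexamer and no heptamer in its 3′ UTR. A match is a description of the sequence, not a shown site, and the guide sequences of the pool are not given in the sources used here.

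**Figure D1:**
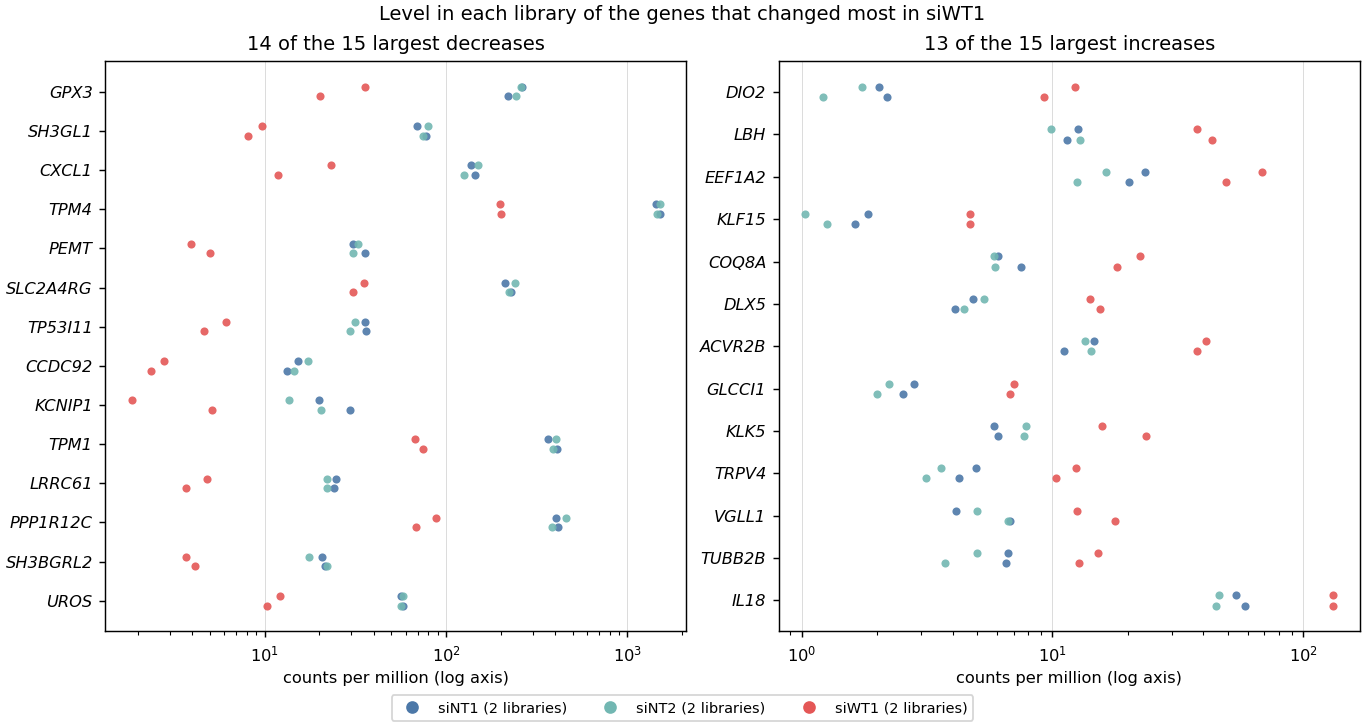
CPM (log axis) in each siNT1, siNT2 and siWT1 library for 14 of the 15 largest decreases (left) and 13 of the 15 largest increases (right) among protein-coding genes, 1 point per library. The siWT1 points lie on 1 side of all 4 control points in every gene, which the rule for naming these genes required, and TPM4 falls from 1430 CPM or more to 202 and 198.

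The increases were smaller than the decreases. DIO2, which activates thyroid hormone, stood at 2.19 and 2.03 CPM in siNT1, 1.22 and 1.74 in siNT2, and 9.28 and 12.3 in siWT1 (log2 fold change 2.61 ± 0.17, adjusted p = 8.37e-10). LBH, a transcription cofactor, went from 9.86 to 12.9 CPM in the controls to 43.5 and 37.8 in siWT1 (1.79 ± 0.10). EEF1A2, a translation elongation factor of muscle and neurons, followed at 1.73 ± 0.11, with the factor KLF15 (1.73 ± 0.21) and COQ8A of coenzyme Q synthesis (1.68 ± 0.13). Among the rest were the homeobox factor DLX5 (1.67 ± 0.11), the activin receptor ACVR2B (1.56 ± 0.11), GLCCI1 (1.54 ± 0.14) and the kallikrein KLK5 (1.54 ± 0.18). The calcium channel TRPV4 (1.53 ± 0.15), the TEAD cofactor VGLL1 (1.43 ± 0.20), the tubulin TUBB2B (1.38 ± 0.11) and the cytokine IL18 (1.37 ± 0.07) followed. Of the 15 largest increases 4 hold the hexamer in the 3′ UTR and 0 the heptamer, beside 31.8 and 11.9% over all the genes searched.

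Several of the largest changes also stood apart from the other targeting groups. A gene is counted as apart where siWT1 was called on the same side against the controls and against each of the 4 other groups. This held for 1474 genes higher (7.01%) and 1696 lower (8.06%) in siWT1. TPM4 had log2 fold changes of -2.88 in siWT1, -0.39 in siMECOM, 0.00 in siPAX8, 0.22 in siSOX17 and 0.10 in siDual, all against the same controls. TPM1 went the other way in 3 of these groups, with 1.13 in siPAX8, 2.00 in siSOX17 and 2.11 in siDual. By the same test 12 of the 15 largest decreases stood apart, the exceptions being CXCL1, KCNIP1 and LRRC61. The 15 were picked by their fall against the controls, which is part of that test, so this count is no independent support. Of all 4171 genes called lower, 1696 stood apart. CXCL1 was at -1.80 in siMECOM, -1.82 in siPAX8 and -2.58 in siDual, and LRRC61 at -3.69 in siPAX8. Among the increases, DIO2, LBH, EEF1A2, KLF15, COQ8A, ACVR2B, TRPV4 and TUBB2B stood apart.

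**Figure D2:**
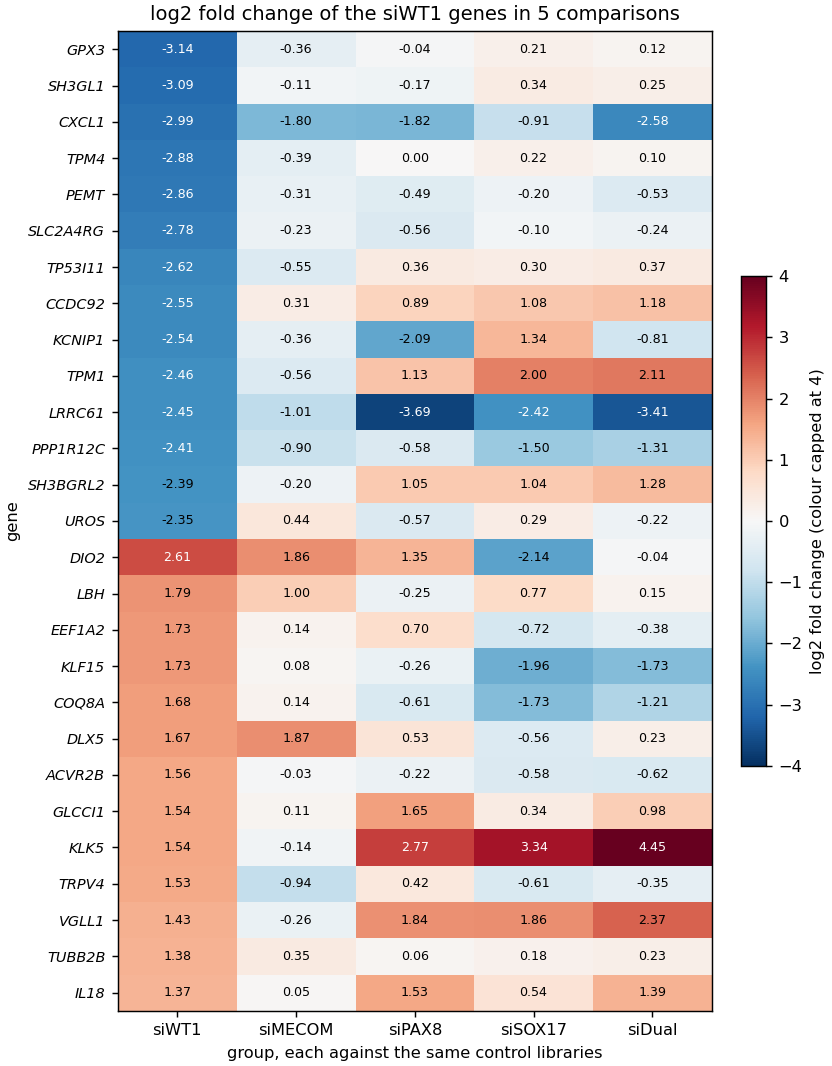
Log2 fold change of 14 of the 15 largest decreases and 13 of the 15 largest increases of siWT1 (rows) in siWT1 and in the other 4 targeting groups (columns), each against the same 4 control libraries. GPX3 is at -3.14 in siWT1 and between -0.36 and 0.21 in the other groups, whereas LRRC61 is negative in every column.

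Some of the transcripts that moved with these genes are genes on the opposite strand. AC007292.1, which overlaps SH3GL1, had a log2 fold change of -3.08, and AC079328.2, which overlaps TPM1, one of -2.89. Both are among the 8 largest decreases that stood apart, as is the long noncoding RNA FLJ22447 (-2.77 ± 0.25; 3.95 to 8.72 CPM in the controls, 0.743 and 1.01 in siWT1). TPM4 overlaps AC008894.3 (-2.29), PEMT overlaps AC020558.1 (-2.56) and FLJ22447 overlaps LINC01303 (-1.95), each on the opposite strand. Of the 15 largest decreases 9 overlap an annotated gene that was itself called lower, and of the 15 largest increases 7 overlap one called higher. How many of all tested genes overlap such a partner was not counted, so whether these counts are high is not known. Without a stated strand, reads of such partners cannot be told apart. The higher side of that group held MT-TV, the mitochondrial valine transfer RNA gene (1.76 ± 0.11), and RPL12P4, a processed pseudogene of the ribosomal protein gene RPL12 (1.67 ± 0.14). RPL12 itself rose by 0.41 ± 0.08, and reads of such near-identical copies may be split between them.

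Contractile and actin-binding genes were often lower, in families chosen after their values had been seen. Of 4 tropomyosin genes 3 were called lower and 0 higher, and of 27 actin and myosin contractile genes 15 were lower and 2 higher, with a median log2 fold change of -0.43. TPM3 fell by 0.40 on the log2 scale (0.07 SE), while TPM2 was at 85.8 to 113 CPM in the controls and 90.0 and 86.3 in siWT1 (adjusted p = 0.0844), and was called lower without siNT1 replicate 2 (-0.26, adjusted p = 0.0493). MYH9, a heavy chain of non-muscle myosin, stood at 2797 and 2536 CPM in siNT1, 2813 and 3273 in siNT2, and 1308 and 1283 in siWT1 (-1.14 ± 0.09, adjusted p = 1.4e-08). ACTB and ACTG1, the cytoplasmic actins, had log2 fold changes of -0.77 ± 0.07 and -0.81 ± 0.10, and reads of both may be split with their pseudogenes. FLNA, which cross-links actin, fell by 0.89, the actinins ACTN4 and ACTN1 by 0.62 and 0.56, and TAGLN2 by 0.97 on the log2 scale.

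SRF, the serum response factor that drives many actin and myosin genes, was lower as well. It stood at 100 and 99.7 CPM in siNT1, 102 and 118 in siNT2, and 33.8 and 38.3 in siWT1 (log2 fold change -1.54 ± 0.09, adjusted p = 1.58e-10). Its cofactors MRTFA (0.18, adjusted p = 0.0778) and MRTFB (-0.18, adjusted p = 0.0742) were not called, though MRTFA was without siNT2 replicate 2 (0.23, adjusted p = 0.0332). The members that rose were the phosphatase subunit PPP1R12B (0.46 ± 0.08) and the calponin CNN3 (0.21 ± 0.06). CNN3 lost its call without siNT1 replicate 1 (0.19) or siWT1 replicate 1 (0.20) or 2 (0.22). MYH9, ACTB, ACTG1, FLNA and SRF were each lower in siWT1 than in every other targeting group. PLEC, which links intermediate filaments to junctions, fell too (-1.10 ± 0.13; 1354 to 1888 CPM in the controls, 770 and 747 in siWT1).

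GAPDH, a glycolytic enzyme whose transcript often serves as a reference in quantitative PCR, was the most abundant transcript in the controls among genes lower by at least 2-fold. It stood at 3364 and 3625 CPM in siNT1, 3346 and 3633 in siNT2, and 883 and 1105 in siWT1. The log2 fold change was -1.81 ± 0.11 (adjusted p = 2.55e-10), beside -0.07 in siMECOM, 0.05 in siPAX8, 0.42 in siSOX17 and 0.38 in siDual. AC006064.4, which overlaps GAPDH on the opposite strand, was at -1.78 ± 0.11, and GAPDH has many processed pseudogenes, so part of the count may be shared. Among 15 genes used as references in quantitative PCR, a family also chosen afterwards, 3 were lower and 6 higher. ACTB, described above, was also among the lower genes. Increases were seen in B2M (0.62 ± 0.11) and TBP (0.39 ± 0.09), and 6 of the genes, RPLP0 (0.06 ± 0.08, adjusted p = 0.582) among them, were not called.

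Across the transcriptome, the 6-base word was more frequent in the 3′ UTRs of genes that fell. Among 13975 protein-coding genes with a 3′ UTR of at least 50 bases, 31.8% held CCACAC. The share was 47.9% of genes called lower, 23.2% of genes called higher and 28.2% of genes not called. Of genes lower by at least 2-fold, 61.8% (346 of 560) held it, and of genes higher by at least 2-fold, 24.4%. It was in 63.3% of genes lower by 2-fold to 4-fold and in 52.6% (41 of 78) of those lower by 4-fold or more. The 7-base word CCACACT was in 11.9% of all these genes, in 32.9% of those lower by at least 2-fold and in 5.16% of those higher by at least 2-fold. These letters were counted on the transcript strand only, and every heptamer contains a hexamer.

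The share also moved with the number of copies. Genes with 0 copies of the hexamer in the 3′ UTR had a median log2 fold change of 0.03, those with 1 copy -0.09, with 2 copies -0.16 and with 3 or more -0.21. The share called lower went from 17.7% with 0 copies through 31.7% and 39.1% to 42.5% with 3 or more. In the other targeting groups the genes with 3 or more copies had medians of -0.01 in siMECOM, 0.10 in siPAX8, 0.07 in siSOX17 and 0.11 in siDual. Longer 3′ UTRs hold more of any word, and the median length was 1274 bases in genes called lower, 1114 in genes called higher and 989 in genes not called. Within the shortest 3′ UTRs (50 to 598 bases) the word was in 20.5% of lower, 4.89% of higher and 8.03% of uncalled genes. In the middle range (599 to 1803 bases) these shares were 44.5, 19.7 and 25.6%, and in the longest 71.2, 43.6 and 54.4%.

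Of all 4096 hexamers, CCACAC had the largest gap between genes lower by at least 2-fold and genes not called, 33.6 percentage points, and the next was the overlapping CACACT at 21.0 points. Ranked by the median log2 fold change of genes with and without the word, it was the second lowest with a difference of -0.16, after ACGCGA at -0.17, which only 130 genes held. The other hexamers among the 10 lowest all contain CG, such as GACGCG (-0.14, 261 genes) and CCCCGC (-0.12, 1893 genes). The 10 lowest of 16153 heptamers, each in 51 to 170 genes, do not include CCACACT. Outside the 3′ UTR the gaps were smaller. In coding sequence the hexamer was in 46.6% of genes called lower and 33.9% of genes not called, and in 5′ UTRs in 7.67 and 6.26%. The share called lower also moved with copies in coding sequence, from 19.2% with 0 through 27.3 and 32.2% to 40.2% with 3 or more. The median log2 fold change there went from 0.03 to -0.20, and the length of the coding sequence was not taken into account. The word was noticed in these data earlier, so these shares describe the comparison and test nothing.

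**Figure D3:**
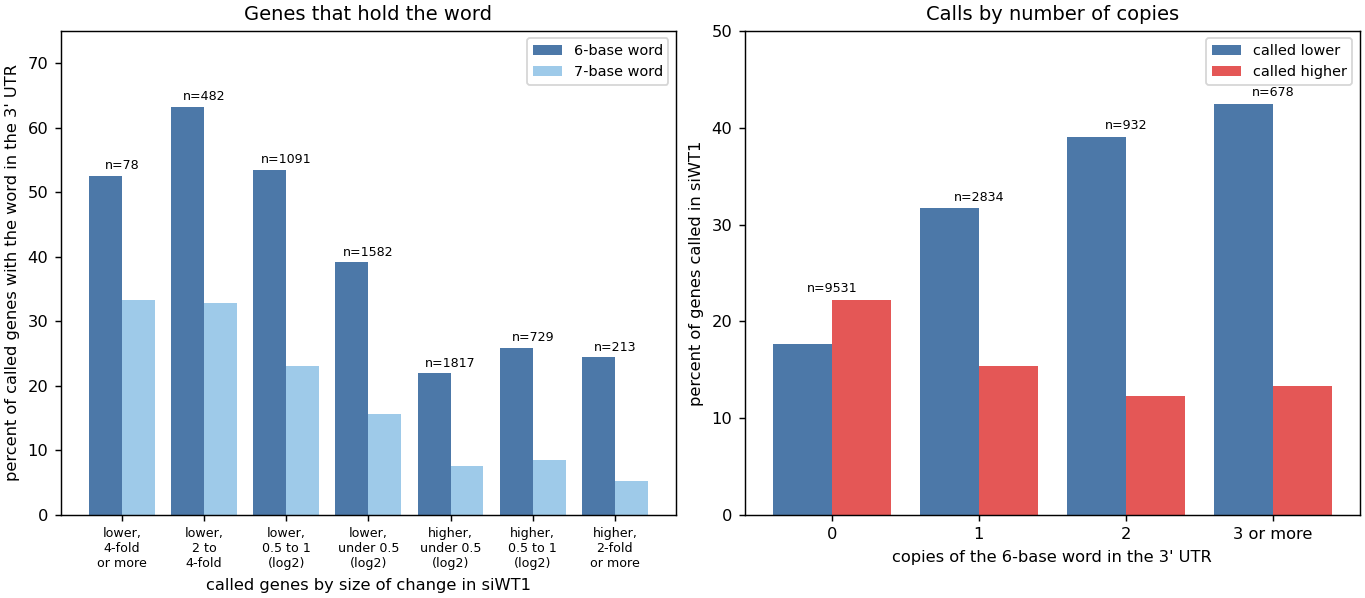
Left, the percent of called protein-coding genes that hold the 6-base word CCACAC or the 7-base word CCACACT in the 3′ UTR, by direction and size of the change in siWT1. Right, the percent of genes called lower or higher by the number of copies of the 6-base word. The share with the 6-base word is 61.8% over all genes lower by at least 2-fold and 24.4% over those higher by at least 2-fold. It is 52.6% in genes lower by 4-fold or more.

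Binding words of WT1 in promoters were searched as well. The words GCGGGGGCG and GCGTGGGAG, on either strand, are of the kind bound by WT1 and the related factor EGR1. In RefSeq windows from 250 bases before to 50 after the start, found for 11265 genes, either word was in 8.99% of all promoters. The share was 10.7% for genes called lower, 8.74% for genes called higher and 8.38% for genes not called. Among genes changed by at least 2-fold it was 10.8% for those lower (46 of 427) and 10.8% for those higher (17 of 157). No match says only that these letters are absent from the window.

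Inflammatory genes, chemokines among them, were often lower. Of 26 NF-kB and inflammation genes 15 fell and 0 rose, with a median log2 fold change of -0.50. Without siWT1 replicate 1, 9 fell and 1 rose. CXCL8 stood at 173 and 173 CPM in siNT1, 116 and 173 in siNT2, and 25.6 and 42.9 in siWT1 (-2.21 ± 0.27, adjusted p = 3.75e-06). CXCL5 went from 48.7 to 56.6 CPM in the controls to 8.63 and 20.6 in siWT1 (-1.85 ± 0.31). In both genes the siWT1 libraries differed from each other by a larger ratio than the controls did, and still lay below them. Of 10 tested CXC chemokine and receptor genes, a family chosen afterwards, 6 were lower (4 without siWT1 replicate 1), 3 were not called and 1, CXCL12, was higher. CXCL12 went from 2.62 to 3.65 CPM in the controls to 6.23 and 5.94 in siWT1 (0.90 ± 0.13). CXCL5 was also low in siSOX17 (-4.23) and siDual (-4.44) and not in siPAX8 (0.06). Of the 15 decreases in the NF-kB and inflammation list, 2 stood apart from the other targeting groups.

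Adhesion and matrix genes were mostly lower. Of 32 genes for basement membrane, collagens and integrins 19 fell and 5 rose (3 without siWT1 replicate 1), with a median of -0.46, and 16 of the decreases stood apart from the other targeting groups. ITGB3, the β3 integrin, stood at 124 and 123 CPM in siNT1, 167 and 143 in siNT2, and 30.6 and 27.0 in siWT1 (-2.26 ± 0.09). ITGA3, the α3 integrin that binds laminin, fell by 1.75 ± 0.14 and HSPG2, which encodes perlecan, by 1.64 ± 0.12 on the log2 scale. HSPG2 stood at 795 to 1052 CPM in the controls and 315 and 286 in siWT1. HSPG2 overlaps LDLRAD2 (-1.63) on the opposite strand and ITGB3 overlaps AC068234.1 (-1.98) on the same strand, so reads of these pairs may be shared. The hemidesmosomal collagen COL17A1 rose from 0.601 to 0.821 CPM to 2.59 and 2.49 (1.84 ± 0.21), with the laminin chain LAMA4 (0.94 ± 0.20) and COL12A1 (0.55 ± 0.12).

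Genes linked to epithelial-mesenchymal transition (EMT) and to matrix turnover were called lower more often than higher. Of 20 EMT genes 10 fell and 0 rose (1 rose without siNT1 replicate 2; median -0.68), and of 19 matrix proteases and inhibitors 10 fell and 2 rose (1 without any 1 of the 6 libraries but siNT2 replicate 1; median -0.48). The matrilysin MMP7 stood at 35.3 and 41.3 CPM in siNT1, 34.0 and 43.4 in siNT2, and 15.5 and 16.8 in siWT1 (-1.25 ± 0.14, adjusted p = 1.37e-06). The gelatinase MMP2 fell by 1.24 ± 0.27, while the inhibitor TIMP1 rose by 0.42 ± 0.09. Of 29 TGF-β and BMP response genes 9 fell and 3 rose (1 without siWT1 replicate 1; median -0.06), with the co-receptor TGFBR3 at -1.29 ± 0.11 and TGFBI at -1.16 ± 0.10.

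Epithelial genes were mixed. Of 30 junction and keratin genes 15 were not called, 11 fell and 4 rose (2 without either siWT1 library; median -0.10), among them the desmoglein DSG2 (-0.83 ± 0.09), the tight junction claudin CLDN1 (-0.78 ± 0.08) and the keratin KRT19 (-0.66 ± 0.10). The desmosomal plakophilin PKP2 (0.32 ± 0.07) and the epithelial factor GRHL2 (0.30 ± 0.08) rose, calls lost without siWT1 replicate 1 (0.20 and 0.24). Of 23 YAP and TEAD target and pathway genes 11 fell and 5 rose (median -0.07). Fewer rose without siWT1 replicate 1, and without siWT1 replicate 2 as many rose as fell. AXL was at -1.50 ± 0.13 and the factor TEAD1 at -0.74 ± 0.09, against TEAD4 at 0.54 ± 0.08.

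**Figure D4:**
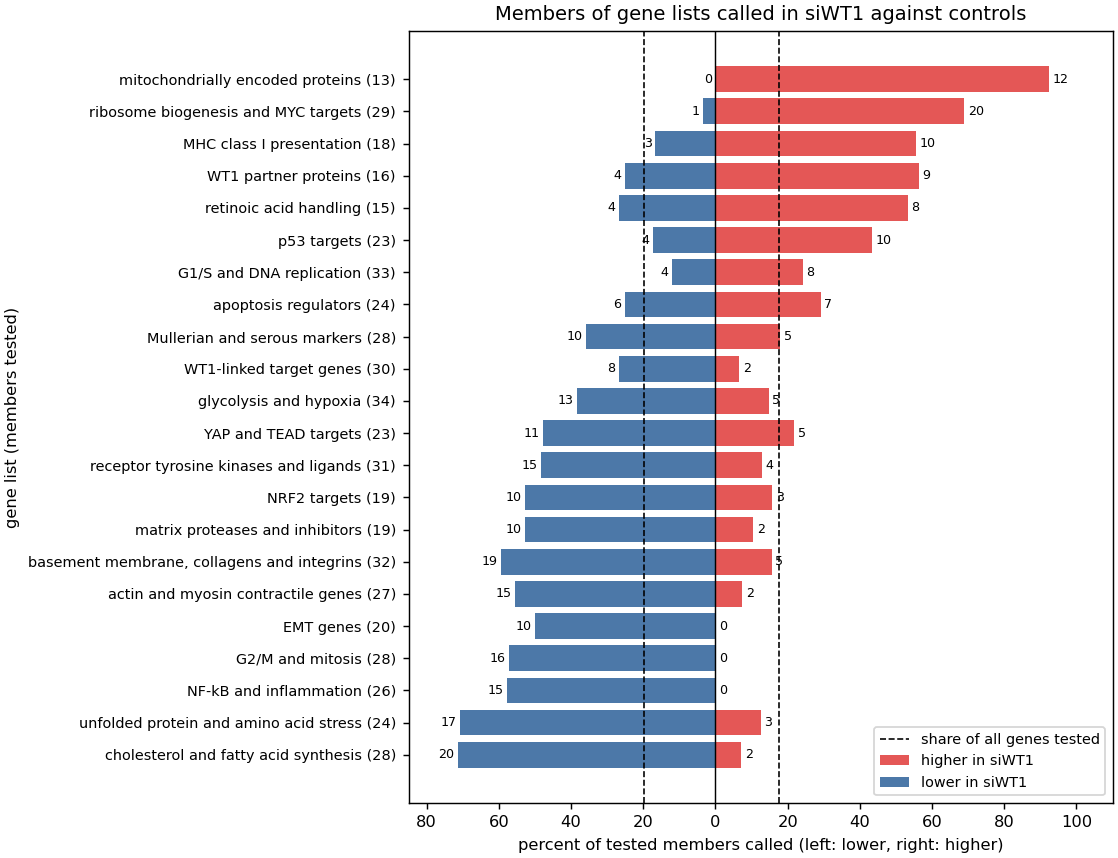
Percent of the tested members of each gene list called lower (left, blue) or higher (right, red) in siWT1 against the controls, with the number of genes at the end of each bar. Dashed lines mark the shares over all 21032 tested genes, 19.8% lower and 17.7% higher. The cholesterol list has 20 of 28 members lower and the mitochondrially encoded list 12 of 13 higher.

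Growth factor receptors and their ligands leaned lower. Of 31 tested, 15 fell and 4 rose (2 without siWT1 replicate 1; median -0.21). PDGFA, a platelet-derived growth factor chain, stood at 7.42 and 8.23 CPM in siNT1, 8.32 and 8.03 in siNT2, and 2.80 and 2.85 in siWT1 (-1.50 ± 0.13, adjusted p = 2.94e-08). The EGF receptor ligand BTC fell by 1.14 ± 0.23. The receptor ERBB3 rose (0.59 ± 0.07), from 54.1 to 68.9 CPM in the controls to 93.4 and 89.8 in siWT1. Downstream, 9 of 27 MAPK feedback and immediate early genes rose and 5 fell (median 0.00), a share lower that is near the 19.8% of all tested genes. DUSP4, a phosphatase of MAP kinases, rose from 0.858 to 2.03 CPM to 4.67 and 5.40 (2.05 ± 0.19). It was also higher in siPAX8 (2.12), siSOX17 (2.02), siDual (2.29) and siMECOM (1.26), which share its controls. Among 11 dual specificity phosphatase genes, a family chosen afterwards, 5 rose and 3 fell, with fewer falling without siWT1 replicate 2. The largest change of that family was a decrease, at -2.24. FOS (0.88 ± 0.15) and FOSB (0.87 ± 0.16) rose, and IER3 (-0.84 ± 0.08) and JUNB (-0.62 ± 0.10) fell.

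Sterol and stress genes were predominantly lower. Of 28 genes of cholesterol and fatty acid synthesis 20 fell and 2 rose, with a median of -0.40. Of these decreases 6 stood apart from the other targeting groups. DHCR7, an enzyme late in cholesterol synthesis, stood at 237 and 249.9 CPM in siNT1, 256 and 268 in siNT2, and 113 and 118 in siWT1 (-1.13 ± 0.08, adjusted p = 4.1e-09). The elongase ELOVL6 fell by 1.03 ± 0.09. The exceptions were TM7SF2 (0.48 ± 0.13) and SC5D (0.27 ± 0.07), calls lost without siWT1 replicate 2 (0.35) and replicate 1 (0.17) in turn. Of 24 genes of the unfolded protein and amino acid stress responses 17 fell and 3 rose (1 without siWT1 replicate 2; median -0.37). ATF4, the factor at the centre of the amino acid response, went from 326 to 362 CPM in the controls to 174 and 189 (-0.93 ± 0.07), and the cystine transporter SLC7A11 (-1.06 ± 0.15) and DDIT4 (-1.06 ± 0.11) fell with it. ATF4 was also lower in siMECOM (-1.22), siPAX8 (-0.68), siSOX17 (-0.85) and siDual (-1.01), which share its controls. Of the 17 decreases in this stress list, 3 stood apart from the other targeting groups.

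Of 19 NRF2 target genes, which answer oxidative stress, 10 fell and 3 rose (median -0.19), with the glutathione synthesis subunit GCLM at -0.57 ± 0.08. Only 5 fell and 1 rose without siWT1 replicate 1, and 6 fell without siNT1 replicate 2 or siNT2 replicate 2. Of 34 glycolysis and hypoxia genes 13 fell and 5 rose (median -0.13). Beside GAPDH these included the carbonic anhydrase CA12 (-1.30 ± 0.09) and the glycolytic regulator PFKFB3 (-1.03 ± 0.11), against hexokinase HK2 (0.66 ± 0.09) and ENO2 (0.58 ± 0.09). Of 14 heat shock chaperone genes 3 fell and 1 rose, with the factor HSF1 at -0.73 ± 0.11 and HSPB8 at 0.56 ± 0.07. Among 10 metallothionein and zinc genes 2 rose and 1 fell, MT1A (0.88 ± 0.14) against MT2A (-0.63 ± 0.12), while without siWT1 replicate 2 3 fell, and without siNT1 replicate 1, siNT2 replicate 1 or siWT1 replicate 1 1 rose.

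Ribosome biogenesis genes and mitochondrially encoded genes were mostly higher. Of 29 ribosome biogenesis and MYC target genes 20 rose and 1 fell, with a median of 0.36, and 16 of the increases stood apart from the other targeting groups. POLR1B, a subunit of RNA polymerase I, stood at 34.3 and 34.4 CPM in siNT1, 32.9 and 32.5 in siNT2, and 55.9 and 47.9 in siWT1 (0.63 ± 0.09, adjusted p = 1.38e-05). The nucleolar protein genes NOP58 (0.63) and UTP20 (0.58) rose, and CAD, of pyrimidine synthesis, fell (-0.75). MYC itself was at 71.6 to 89.4 CPM in the controls and 83.6 and 79.7 in siWT1 (0.01 ± 0.07, adjusted p = 0.952). Of 40 ribosomal protein genes 35 were not called, 5 rose and 0 fell (median 0.11), a share higher that lies below the 17.7% of all tested genes, and 3 and 2 rose without siWT1 replicates 1 and 2.

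Of 13 mitochondrially encoded protein genes 12 rose and 0 fell (median 0.60), with MT-ND2 and MT-ND1, subunits of respiratory complex I, at 0.86 ± 0.09 and 0.86 ± 0.10. None of the 13 was called on the same side against every other targeting group, where MT-ND1 was at 0.69 to 1.03 against the controls. Of 24 tested mitochondrial transfer and ribosomal RNA genes 20 rose. The share of mitochondrial counts given above moved with these genes, and its part in the other results was measured only by leaving these genes out of the library sizes, which gave 3944 genes higher and 3987 lower. Pseudogenes leaned upward too, with 412 of 1668 higher and 108 lower, against 2901 of 14708 protein-coding genes higher and 3352 lower. Long noncoding RNA genes leaned the other way, with 318 of 3954 higher and 631 lower.

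Antigen presentation genes of the major histocompatibility complex (MHC) class I pathway were higher more often than lower. Of 18 genes 10 rose and 3 fell (median 0.46). HLA-B stood at 266 and 223 CPM in siNT1, 289 and 223 in siNT2, and 443 and 493 in siWT1 (0.90 ± 0.12, adjusted p = 6.92e-06). HLA-G (0.94 ± 0.19) and B2M, the light chain, rose as well, and reads may be split among these similar HLA genes. The peptide-trimming enzyme ERAP1 fell (-0.26 ± 0.07). Interferon-stimulated genes were mixed, with 9 of 38 higher and 6 lower (median 0.03), RSAD2 at 0.98 ± 0.21 and OAS3 at -0.80 ± 0.12.

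The proteins that carry out RNA interference also changed at the RNA level. Of 16 genes of this machinery 8 rose and 3 fell (1 without siWT1 replicate 2; median 0.10). TNRC6A, a partner of Argonaute in silencing, stood at 62.4 and 65.6 CPM in siNT1, 62.5 and 59.9 in siNT2, and 115 and 105 in siWT1 (0.81 ± 0.08), and it was at 0.79 to 1.11 in siPAX8, siSOX17 and siDual. The Argonaute gene AGO2 (0.44 ± 0.09) and the exportin XPO5 (0.46 ± 0.07) rose, and TNRC6C (-0.92 ± 0.12) fell.

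Cell cycle genes changed by small amounts. Of 28 G2/M and mitosis genes 16 fell and 0 rose (7 fell without siWT1 replicate 2), but the median was -0.19 and the largest decrease was CCNB2 at -0.43 ± 0.07, beside -1.73 in siPAX8 and -0.94 in siSOX17. The proliferation marker MKI67 went from 665 to 734 CPM in the controls to 539 and 533 (-0.40 ± 0.09). None of the 16 G2/M decreases stood apart from the other targeting groups. Of 33 G1/S and DNA replication genes 8 rose and 4 fell (4 rose without siWT1 replicate 1; median 0.10). CCNE2, cyclin E2, stood at 14.8 and 14.5 CPM in siNT1, 17.0 and 15.2 in siNT2, and 28.5 and 25.0 in siWT1 (0.80 ± 0.08), and the uracil glycosylase UNG rose (0.71 ± 0.08). GINS2, of the replication helicase, fell from 18.8 to 20.5 CPM to 6.84 and 7.93 (-1.42 ± 0.09). Of 7 CDK inhibitors 3 fell and 1 rose, CDKN2D by -0.85 ± 0.11 and CDKN1B by 0.28 ± 0.07. Cyclin D1, CCND1, was called lower (-0.45 ± 0.08), yet its 4 control libraries split, with 185 and 166 CPM in siNT1, 105 and 95.9 in siNT2, and 104 and 90.7 in siWT1. The siWT1 libraries overlapped the siNT2 libraries, and against siNT2 alone CCND1 was not called (-0.04, adjusted p = 0.766).

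Over all tested genes 17.7% were higher and 19.8% lower, and cell death genes are read against those shares. Of 24 apoptosis regulators 7 rose and 6 fell (median 0.08), of which the share lower is near that of all genes, and of 23 p53 target genes 10 rose and 4 fell (2 without siNT1 replicate 1; median 0.19). APAF1, the core of the apoptosome, stood at 12.4 and 13.4 CPM in siNT1, 15.3 and 12.6 in siNT2, and 4.55 and 4.61 in siWT1 (-1.55 ± 0.13, adjusted p = 1.55e-08). The survival gene BCL2L2 fell (-1.07 ± 0.11). The pro-apoptotic genes HRK (0.97 ± 0.18), BBC3 (0.96 ± 0.19) and BIK (0.75 ± 0.15) rose. BTG2, an antiproliferative p53 target, went from 8.63 to 13.4 CPM to 24.9 and 24.8 (1.25 ± 0.09), the death receptor gene TNFRSF10B rose (0.92 ± 0.09), and CDKN1A was not called (-0.14 ± 0.11, adjusted p = 0.329).

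Genes that the literature links to WT1 did not move as a body. Of 30 WT1-linked genes 2 rose and 8 fell, with a median of -0.03. PDGFA, described above, and PODXL, a sialomucin of podocytes, fell most. PODXL stood at 99.8 and 97.4 CPM in siNT1, 108 and 99.5 in siNT2, and 36.8 and 38.9 in siWT1 (-1.42 ± 0.09, adjusted p = 4.41e-10). The EMT factor SNAI1 (-0.81 ± 0.10), JUNB, CDH1, the epithelial cadherin (-0.64 ± 0.08), and VEGFA, the vascular growth factor (-0.44 ± 0.08), also fell. WNT4, which acts in kidney and Müllerian duct formation, rose by 0.55 ± 0.16, with 0.849 to 1.61 CPM in the controls. The level was 1.67 CPM in siWT1 replicate 2, and replicate 1 lay within the control range. The WNT4 call was lost without siNT2 replicate 1 (0.43) or siWT1 replicate 1 (0.57) or 2 (0.52) and against siNT2 alone (0.24). Ornithine decarboxylase, ODC1, rose by 0.36 ± 0.07. BCL2, a survival gene (0.28 ± 0.20, adjusted p = 0.276), and IGF1R, a growth factor receptor (0.13 ± 0.12, adjusted p = 0.421), were not called.

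Genes of proteins that bind WT1 leaned higher, with 9 of 16 higher and 4 lower (1 without siWT1 replicate 1; median 0.23). WTIP, an adaptor of WT1, stood at 11.3 and 10.1 CPM in siNT1, 9.56 and 11.05 in siNT2, and 18.3 and 18.8 in siWT1 (0.82 ± 0.11), and FHL2 rose by 0.46 ± 0.08. WTAP, of the RNA methylation complex, fell (-0.28 ± 0.07). Of 8 genes of that N6-methyladenosine writer complex 3 fell, METTL3 by -0.40 ± 0.09, and 1 rose (0 without siNT1 replicate 2, siNT2 replicate 2 or siWT1 replicate 1). Of 10 EGR and SP family factor genes 0 rose (1 without siNT2 replicate 1) and 2 fell, KLF6 (-0.40 ± 0.10) and SP3 (-0.18 ± 0.07). KLF6 lost its call without siWT1 replicate 2 (-0.28), and SP3 without any 1 of the libraries other than siNT2 replicate 2 (-0.21 to -0.14). The share of EGR and SP genes lower lies near the 19.8% of all tested genes.

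Lineage genes changed unevenly. The shares higher in the Müllerian and serous list and in the podocyte and kidney list lie near the 17.7% of all tested genes. Of 28 Müllerian and serous markers 5 rose and 10 fell (median -0.01). Only 6 fell without siWT1 replicate 1, and 3 rose without siNT1 replicate 1, siNT2 replicate 1 or siWT1 replicate 2. MUC16, the CA125 antigen, stood at 209 and 142 CPM in siNT1, 230 and 177 in siNT2, and 84.8 and 85.8 in siWT1 (-1.15 ± 0.14, adjusted p = 3.21e-06). The cadherin CDH6 went from 156 to 178 CPM to 66.8 and 60.9 (-1.38 ± 0.08), and SOX9 fell (-0.94 ± 0.18). Of 17 podocyte and kidney genes 3 rose (1 without siNT2 replicate 1, 0 without siWT1 replicate 2) and 5 fell (median -0.03), with the kidney cadherin CDH16 at -2.46 ± 0.33. Of 10 mesothelial markers 1 rose and 6 fell (median -0.39), and 2 rose without siNT1 replicate 1, siNT2 replicate 1 or siWT1 replicate 2. LRRN4 fell from 1.41 to 1.93 CPM to 0.343 and 0.230, UPK3B from 116 to 147 CPM to 38.8 and 32.5, and PDPN, podoplanin, rose (1.04 ± 0.07).

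Genes picked earlier on these libraries for their low level in siPAX8 were partly lower here, where PAX8 itself fell. Of 9 such genes 5 fell and 0 rose in siWT1 (1 rose without siWT1 replicate 1), with a median of -0.69, and a list picked on these libraries is no independent evidence. Beside LRRC61, these were FAM107A (-1.30 in siWT1, -3.49 in siPAX8), LRRC41 (-1.29 and -3.18), the connexin GJB2 (-0.97 and -3.39) and FGF18 (-0.69 and -4.82). Both comparisons share the control libraries. Of 9 genes chosen for their high level in siPAX8, 1 rose (TMEM40, 0.80) and 2 fell (ARSJ, -1.32, and ANGPTL4, -0.72). TMEM40 lost its call without siWT1 replicate 1 (0.50), as ANGPTL4 did without siWT1 replicate 1 (-0.46), siNT1 replicate 2 (-0.60) or siNT2 replicate 1 (-0.64).

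The remaining signalling lists were mixed. In the Wnt list both shares lie near those of all tested genes, 17.7% higher and 19.8% lower. The same holds for the share higher in the insulin-like growth factor list. Of 22 Wnt response genes 4 rose (1 or 2 without any 1 of the 6 libraries but siNT2 replicate 2) and 5 fell (3 without siWT1 replicate 1; median 0.02), with the feedback inhibitor NOTUM at -1.19 ± 0.15 and WNT7A at -1.05 ± 0.08. Of 20 Notch pathway genes 7 rose (4 without siNT1 replicate 1, 3 without siWT1 replicate 2) and 2 fell (median 0.14), with NRARP at 0.86 ± 0.13. Of 15 genes that handle retinoic acid 8 rose (5 without either siWT1 library) and 4 fell (2 without siNT1 replicate 2 or siWT1 replicate 1; median 0.50), the dehydrogenase ALDH1A3 (1.14) against the retinol receptor STRA6 (-1.39). Of 17 genes of the insulin-like growth factor axis 3 rose and 7 fell (4 and 3 without siWT1 replicates 1 and 2; median -0.16), with the adaptor IRS2 at 0.95 and IGFBP3 at -0.79. Of 28 lysosome and autophagy genes 13 rose (5 and 7 without siWT1 replicates 1 and 2) and 4 fell (median 0.16), with GABARAPL1 at 0.60 and the cathepsin CTSB at -0.81.

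Markers of other cell types were counted because a shift in them could move with these groups. The summed level of 10 immune cell markers was 19.1 to 23.0 CPM in the controls and 10.3 to 11.9 in siWT1, with MS4A1 at 0, and 1 of 3 tested members fell (CD68, -0.99). For 10 fibroblast and smooth muscle markers the sums were 632 to 903 and 329 to 455 CPM, and 4 of 9 tested members fell and 0 rose (1 without siWT1 replicate 2), among them ACTA2 (-0.96) and TAGLN (-0.90), which also stand in the contractile and EMT lists. For 11 squamous keratinocyte markers they were 403 to 581 and 363 to 438 CPM, with SPRR1B, SPRR3 and IVL at 0, and 2 of 8 tested members fell (1 without siWT1 replicate 1) and 0 rose (1 without siNT1 replicate 1, siNT2 replicate 1 or siWT1 replicate 2). They were SFN (-0.79) and KRT6B, which is scarce, at 0.132 to 0.401 CPM in the controls and 0 and 0.0383 in siWT1, and lost its call without siWT1 replicate 1 (adjusted p = 0.0738). For 10 endothelial markers the sums were 19.8 to 22.5 and 20.1 to 21.0 CPM, with 3 of 8 higher and 2 lower, CDH5 (-1.56) and PECAM1 (-1.28). Those of 10 neuronal markers were 83.7 to 103 and 64.3 to 69.9 CPM, with STMN2, GAP43, NEFL and NEFM at 0, and of 5 tested MAP2 (-0.53) and TUBB3 (-0.37) fell. TUBB3 lost its call without siWT1 replicate 1 (-0.23). Those of 10 hepatocyte markers were 17.9 to 23.6 and 19.0 to 19.7 CPM, with TTR at 0, and 1 of 3 tested fell. It was AFP, also scarce, at 0.100 to 0.374 CPM in the controls and 0.0762 and 0.0191 in siWT1, and its call was lost without siNT2 replicate 2 (adjusted p = 0.0996) or siWT1 replicate 2 (adjusted p = 0.164). All libraries are of 1 line, OVCAR4, so these sums do not count cells of other types. Fewer cells of the line with a transcript and less of it per cell cannot be told apart in bulk. The part of these markers in the changes was not tested.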

How the data were processed

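RNA-seq libraries of OVCAR4 cells were put into groups by the siRNA pool in their titles. The authors deposited whole-number read counts per gene, unnormalised, on hg38; STAR 2.5.1b and featureCounts 1.6.3 are named in the submitters' processing notes, while the annotation release, strand setting and filters are not given in the sources used here. The deposited table holds 58219 genes, of which 57881 matched GENCODE 29 by identifier, which gave names and positions, and 19115 had 0 counts throughout. A deposited column of gene lengths was not used.

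The 21032 genes kept by the filterByExpr filter (edgeR 4.0.16, at its minimum count of 10 and total of 15) were fitted in a single quasi-likelihood model of all 14 libraries with trimmed mean of M-values scaling (TMM), 7 groups and 7 residual degrees of freedom (biological coefficient of variation 7.57%). The contrast was siWT1 minus the mean of siNT1 and siNT2, with Benjamini-Hochberg adjustment. Further contrasts set siWT1 against each other targeting group and siNT1 against siNT2. CPM values use TMM library sizes, and standard errors were obtained by dividing the log2 fold change by the square root of F. On simulated data 78 of 99 genes changed by 2-fold and 92 of 98 changed by 4-fold were recovered for this comparison, with 11 false calls among 20170 unchanged genes. That simulation changed few genes, and only in siWT1, so its rates need not hold where 37.5% of genes were called.

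Words were searched in 1 GENCODE 29 transcript per gene, and promoters taken from RefSeq. The members and gene lists were chosen with earlier results of these data known. Named genes are the 4 targeted factors, the 15 largest increases and decreases among called genes that code for proteins, have no overlap between groups and average log2 CPM 1 or more, the 8 largest that stood apart on each side, at most 3 members per list and direction, members of the WT1 and Müllerian lists, and the 5 most abundant genes changed by 2-fold on each side. This covers 290 genes. The text names only part of them, a few are not reported here, and 54 called genes that lost their call under some alternative are not named, a part of them left out after that was seen. Families said to be chosen afterwards, and KRT8, PAX8-AS1, GJB2 and FGF18, fall outside that rule and were chosen after their values were seen. Alternatives were DESeq2 1.42.0, its size factors, other filters, 6 libraries alone, each control pool alone, a replicate block, mitochondrial genes left out, and each library left out in turn.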

Additional observations from a re-analysis of the deposited data

Results flagged for a closer look

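In 10 of the 183 genes described above, 1 of the 4 control libraries stood far from the other 3, with a gap to its nearest neighbour that, as a share of the range over the 4, passed the critical value of Dixon's test. Chance gives such a gap in about 1 of 20 groups. The library siNT1 replicate 1 was high for COQ8A (7.495 CPM, the others 5.875 to 6.077), ALDH1A3 (3.512 CPM, the others 1.892 to 2.091) and BCL2 (2.616 CPM, the others 1.703 to 1.848). siNT1 replicate 2 was high for CTSB, at 454.3 CPM with the others between 407.5 and 414.1. In siNT2 replicate 1, CXCL8 was low (116.3 CPM, the others 172.6 to 173.3) and B2M high (378.7 CPM, the others 304.6 to 310.6). In siNT2 replicate 2, SRF (118.4 CPM, the others 99.72 to 102.5), AXL (22.18 CPM, the others 17.29 to 18.08) and SNAI1 (16.17 CPM, the others 13.53 to 13.71) were high. TNFRSF10B was low there, at 19.14 CPM against 21.8 to 22.14.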

How the results depend on the processing

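Without 1 library, the genes called higher in siWT1 numbered 2452 to 3707 and those called lower 3109 to 4173. By at least 2-fold they numbered 384 to 574 and 770 to 870, and those apart from every other targeting group 1045 to 1580 higher and 1377 to 1633 lower. With a filter of at least 1 CPM in at least 2 libraries, 235 genes were higher by at least 2-fold. Genes called between siNT1 and siNT2 numbered 153 with DESeq2, 232 with no filter and 11 to 77 without 1 library. Apart from the replicate block, given next, the other alternatives left each of these counts within 1.5 times its value above.

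Replicate numbers are shared between groups. With a replicate block, 4093 genes were called higher and 4518 lower in siWT1, and 150 between siNT1 and siNT2. The deviations of same-numbered libraries correlated by 0.0399 for siNT1 and siWT1 and by 0.153 for siNT2 and siWT1 (-0.018 to 0.161 over all pairs of groups), and with 2 libraries a group and no label of a shared day the numbers were not taken as pairs.

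Of the 254 called genes that the naming rule covers, 68 lost their call under at least 1 of the 23 alternatives, and 0 changed sign. The other 186 kept it in every alternative that tested them. A gene that an alternative dropped before testing was not counted as lost. This was so for WT1 under the filter of 1 CPM and for mitochondrial genes where these were left out. The genes described above are the steadier ones, since 54 of the 68 are not named, a part of them left out after these values were seen. Direction changed only in uncalled genes near 0: SOX17 ranged from -0.069 to 0.21 without 1 library, and MYC from -0.030 to 0.043, with MYC at -0.10 against siNT1 alone. With 1 siWT1 library left, that library is assumed to vary like the other groups. With 2 libraries a group, small changes may be missed: in simulated data 78 of 99 genes changed by 2-fold were called. Far fewer genes were changed there than were called here, so that rate need not hold for these data. WT1 itself rests on 0 and 1 counts in siWT1, and the cause of the differences between settings was not tested.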
